A study of Mus musculus with 36 samples.

Results

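The respiratory chain subunits examined here are the 85 genes of the nucleus, among 23845 gene symbols in the table, whose symbols mark them as subunits of the mitochondrial respiratory complexes. Symbols alone decided which genes belong, although the set was chosen with earlier results of these data known. Nduf followed by a, b, c, s or v and a digit gave 37 genes of complex I. Sdha to Sdhd gave 4 of complex II, and Uqcr genes and Cyc1 gave 9 of complex III. Cox4 to Cox8 genes gave 18 of complex IV and Atp5 genes gave 17 of complex V. The symbol groups are not perfect: Ndufa4 is nowadays counted as a subunit of complex IV, Cox7a2l as a factor that ties complexes III and IV together, and Atp5sl as an assembly factor of complex I, and all stayed where their symbols put them. Ndufab1, a subunit of complex I, was left out because a further letter stands before its digit. RNA was sequenced from mouse embryos in 36 libraries, each a pool of 4 to 5 embryos per the design text, which speaks of injected embryos without naming groups. At the 2-cell stage (2C) there were 4 NI, 7 Ctrl and 6 KRAB libraries, and at the 8-cell stage (8C) 6 NI, 6 Ctrl and 7 VP64 libraries. The study's title names activation of LINE-1 retrotransposons after fertilisation and chromatin accessibility. KRAB is the name of a repressor domain of transcription factors and VP64 that of an activator domain, and the labels give neither what NI stands for nor what the Ctrl embryos received. Strain, age of the mothers and sex were not given in the sources used here, nor was the number of separate experiments, so the p-values measure only the spread between these pools. The KRAB and VP64 groups were each sampled at a single stage, so the change between stages could be followed in NI and Ctrl embryos.

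The respiratory chain moves electrons from NADH through complex I, or from succinate through complex II, to ubiquinone, then through complex III and cytochrome c to complex IV, where oxygen is reduced. The proton gradient built on the way drives complex V, the ATP synthase. Most subunits are encoded in the nucleus and imported, and a small core is encoded by the mitochondrial genome, which complex II does without. Mouse eggs hold many mitochondria, which are inherited from the mother and shared out among the cells as the embryo cleaves. Cleaving embryos rely on pyruvate before they turn to glucose near the blastocyst stage. None of the 13 protein genes of the mitochondrial genome were among the symbols of the table, so the nuclear share alone is described.

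Promoter sequence was available from RefSeq (GRCm38.p6) for 69 of the 85 genes, in windows of 250 bases before to 50 bases after the start of transcription. The promoters below are shown because the results turn on these genes: Cox6b1 and Cox6b2 are paralogs whose RNA traded places between the stages, and Sdha and Sdhb are partners in complex II with unlike changes. Between the stages in Ctrl embryos, Ndufa12 and Atp5j changed most or nearly most in complexes I and V, while in NI embryos other genes changed more. Each line gives the 150 bases that end just before the start, 5′ to 3′ on the strand of the gene, and the capitals mark matches on either strand to 4 short motifs.
Cox6b1, chr7:30626115-30626264, minus strand: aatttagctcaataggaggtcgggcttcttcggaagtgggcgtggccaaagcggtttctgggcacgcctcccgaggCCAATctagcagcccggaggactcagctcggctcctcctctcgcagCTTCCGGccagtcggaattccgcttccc
Cox6b2, chr7:4753095-4753244, minus strand: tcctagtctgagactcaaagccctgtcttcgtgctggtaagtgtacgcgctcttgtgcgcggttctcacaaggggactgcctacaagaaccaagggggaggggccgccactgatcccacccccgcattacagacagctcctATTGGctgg
Sdha, chr13:74350241-74350390, minus strand: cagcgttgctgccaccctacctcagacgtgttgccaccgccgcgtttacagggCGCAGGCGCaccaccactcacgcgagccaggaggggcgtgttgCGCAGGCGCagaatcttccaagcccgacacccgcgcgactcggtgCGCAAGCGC
Sdhb, chr4:140961121-140961270, plus strand: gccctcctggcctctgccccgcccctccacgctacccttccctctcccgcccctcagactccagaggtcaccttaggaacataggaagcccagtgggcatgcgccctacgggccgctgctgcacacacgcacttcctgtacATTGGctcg
Ndufa12, chr10:94198885-94199034, plus strand: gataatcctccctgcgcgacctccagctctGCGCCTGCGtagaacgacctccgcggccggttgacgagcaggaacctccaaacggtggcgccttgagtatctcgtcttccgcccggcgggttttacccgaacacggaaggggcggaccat
Atp5j, the second of its start sites, chr16:84834977-84835126, minus strand: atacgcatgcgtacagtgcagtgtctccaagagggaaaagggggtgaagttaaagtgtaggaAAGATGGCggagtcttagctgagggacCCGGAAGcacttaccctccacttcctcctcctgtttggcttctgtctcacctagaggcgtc
The motifs were GCGCNTGCG, most of the core read by NRF1, a known regulator of respiratory genes, CCGGAAG, the core of ETS-family sites such as those of GABP, AAGATGGC, a form of the YY1 site, and CCAAT. No motif contains another. In these stretches Sdha held 3 NRF1 matches, which lay 97 to 89, 54 to 46 and 9 to 1 bases before the start, and Ndufa12 held 1, at 120 to 112. Cox6b1 held a CCAAT box 74 to 70 bases and an ETS match 28 to 22 bases before the start. Cox6b2 and Sdhb each held only a CCAAT match, in both at 9 to 5 bases before the start. Before its second start site Atp5j held a YY1 match at 88 to 81 and an ETS match at 61 to 55. The stretch of the same length before its first start site, not shown, held no match.

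Over the whole windows the NRF1 motif was found in 24 of the 69 members with a promoter (34.8%), against 7.12% of 27025 genes in the RefSeq promoter table. The ETS motif was found in 16 (23.2%, against 9.93% of all genes), the YY1 motif in 11 (15.9%, against 3.19%) and CCAAT in 31 (44.9%, against 41.1%). A match is a run of letters and not a measured site. Those for which no sequence was used included Ndufa2, Ndufa4l2, Ndufb9, Ndufs1, Sdhc, Cyc1, Uqcrb, Uqcrc2, Uqcrq, Cox4i1, Cox4i2, Cox6a2, Cox6c, Cox8c and Atp5a1.

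The libraries held 1043740 to 13583500 counts and the respiratory chain genes took 0.319% to 3.15% of them, with 77 to 84 of the 85 genes detected per library. Levels below are in CPM, a gene's count relative to the TMM-scaled total of its library. The summed level of 10 oocyte and early 2-cell genes was 1436 to 6438 CPM at 2C and 34.8 to 162 CPM at 8C, without overlap, and that of 8 genes of the 8-cell embryo was 158 to 4913 and 2723 to 21605 CPM, with overlap. Marker genes of the cumulus and granulosa cells around the egg summed to 46.8 to 573 CPM over the 36 libraries, and sperm markers to 2.10 to 333 CPM. In Ctrl 2C the mean sperm sum of 195 CPM was mostly Odf2 (175 CPM), with Prm1, Tnp1 and Smcp at 0 to 0.0572 CPM. Of the mean cumulus sum there, 217 CPM, Serpine2 gave 123, Amhr2 28.1 and Nr5a2 23.2 CPM. Amh and Foxl2 were at 0 and Fshr at 0.0311 CPM. Hsd3b1 had a mean of 11.2 CPM in Ctrl 2C and 67.5 CPM in KRAB 2C. Several libraries stood apart in the summed level of the respiratory chain genes. At 2C these were NI replicate 1 (26123 CPM) and replicate 3 (15076 CPM), Ctrl replicate 6 (12022 CPM) and KRAB replicates 3 and 5 (10998 and 12722 CPM), where the other libraries of that stage lay between 2738 and 6285 CPM. The same 5 libraries had 2529 to 4913 CPM of the 8-cell genes and 2.19% to 5.20% of their counts in ribosomal protein genes. The other 2C libraries had 158 to 1125 CPM, apart from KRAB replicate 1 (4294 CPM), and 0.151% to 2.07%. At 2C the 8-cell sum was mostly Nanog and Dppa5a, with means of 1341 and 778 CPM in NI, 633 and 415 in Ctrl and 1164 and 818 in KRAB. Tdgf1, Aqp3, Cdx2, Gata6, Cldn4 and Fbp2 had means of 0.665 to 2.87 CPM in NI 2C and 0.467 to 3.70 CPM in KRAB 2C. Their means in Ctrl 2C were 0.721 to 16.7 CPM, above medians of 0.426 to 4.84 CPM. The highest Ctrl 2C values were 64.7 CPM for Tdgf1, 52.8 for Aqp3, 88.8 for Cldn4 and 2.78 for Cdx2. Nanog had a mean of 604 CPM in NI 8C, below that in NI 2C. The part of these differences between 2C libraries in the results was not tested. At 8C the libraries that stood apart were Ctrl replicate 6 (62591 CPM), VP64 replicate 7 (42773 CPM) and NI replicates 5 and 6 (26054 and 39253 CPM). The others lay between 11990 and 22792 CPM. Several results are also given without 1 of these libraries, but not for each library in turn. Counts were under 2000000 in 10 libraries. Among these were NI 2C replicates 1 and 3, so fits without the 10 libraries rest on NI 2C replicates 2 and 4 alone.

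**Figure D1:**
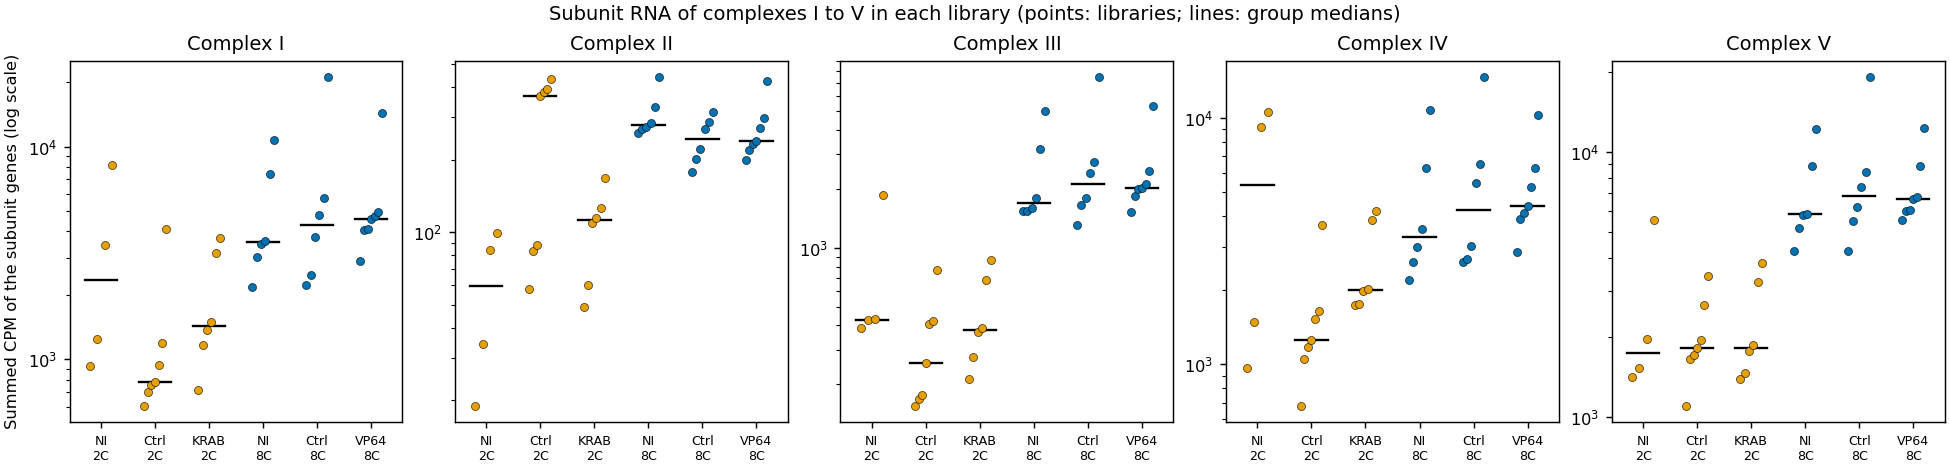
Summed CPM of the subunit genes of each complex (vertical axes, log scale) in the 6 groups (horizontal axes), with 1 point per library and a line at the group median. Complexes I, III, IV and V share most of their high libraries, while complex II at 2C is highest in 4 of the 7 Ctrl libraries.

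Complexes I, III, IV and V tended to be high or low in the same libraries, and at 2C complex II did not follow them. In the NI 2C libraries complex II summed to 19 to 98.8 CPM, and its lowest library, replicate 1, was the highest in complex III, at 1864 CPM where the others lay at 388 to 431 CPM. In Ctrl 2C embryos complex II split into 2 levels: replicates 1, 3, 5 and 7 lay at 368 to 433 CPM and replicates 2, 4 and 6 at 57.8 to 87.9 CPM. The summed oocyte and early 2-cell genes were divided in the same way, at 4532 to 6259 CPM in the former and 1555 to 2917 CPM in the latter, and their part in the split was not tested. Most of the complex II sum in Ctrl 2C replicates 1, 3, 5 and 7 was Sdha. Sdhc and Sdhd were divided likewise, and Sdhb was not. Complex II summed to between 48.7 and 167 CPM in the KRAB 2C libraries. At 8C all 19 libraries lay between 178 and 438 CPM, and the highest, NI replicate 6 and VP64 replicate 7 (438 and 423 CPM), were also high in the other complexes.

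Levels of different genes were compared per kilobase of transcript. The most abundant member at 2C was Cox8a, the main form of the smallest complex IV subunit, with medians of 2639 CPM per kilobase in NI, 809 in Ctrl and 1333 in KRAB libraries. Next at this stage came Cox6b2, Cox5a, Cox6c, Ndufa4, Atp5b and Atp5g1, in an order that differed between the groups. At 8C the first was Atp5g1, a gene for the membrane ring of ATP synthase, with medians of 1268, 1725 and 1614 CPM per kilobase in NI, Ctrl and VP64. It was followed by Cox4i1 (1204, 1363 and 1361) and by Cox8a (927, 1011 and 870), and neighbours in this order had ranges that overlapped. Cox8b, a form of heart and skeletal muscle, had 0 counts in all 36 libraries.

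Several complex IV subunits exist as paralogs used in different tissues, and 1 pair switched between the stages. Cox6b1 is the general form of a subunit that faces the space between the membranes, and Cox6b2 is its testis form. Cox6b2 made up a median of 70.3% of the pair's RNA per kilobase in NI, 71.6% in Ctrl and 70.7% in KRAB embryos at 2C, with a range of 51.7% to 91.7% over those libraries. At 8C the medians were 2.38% in NI, 2.07% in Ctrl and 3.19% in VP64, with a range of 0.242% to 7.50%, so the stages did not overlap in any library. Other pairs kept their general form: Cox4i1 made up at least 95.95% of its pair with Cox4i2 in each library, Cox8a at least 98.9% of its set and Cox6a1 at least 89.7% of its pair with Cox6a2, the muscle form. Cox7b made up a median of 95.1% to 100% of its pair with Cox7b2 in the 6 groups, with a lowest library of 72.5% in NI 8C. The set of Cox7a1, Cox7a2 and Cox7a2l was more even: Cox7a2 had medians of 89.9% in NI and 87.7% in KRAB but 64.98% in Ctrl embryos at 2C, where its lowest library held 48.1%, and 68.5% to 78.1% at 8C. Among the genes of the ATP synthase ring, which encode the same mature protein, Atp5g1 led with medians of 65.9% (Ctrl 2C) to 87.5% (NI 2C), and Atp5g2 had a median of 32.1% in Ctrl 2C embryos and 3.99% to 8.21% in the other groups, with ranges that overlapped.

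The first comparison asked how the respiratory chain genes changed from the 2C to the 8C stage. Of the 83 tested genes 31 rose and 3 fell in NI embryos, while 65 rose and 2 fell in Ctrl embryos (edgeR's quasi-likelihood test, Benjamini-Hochberg adjusted p under 0.05 over 13158 genes). Among all genes tested, NI had 18.5% higher and 31.4% lower at 8C, and Ctrl 22.5% higher and 39% lower. The median log2 fold change of the members was 1.31 in NI and 2.30 in Ctrl, and that of all genes was -0.47 and -0.51. With DESeq2's scaling these medians were 1.04 and 2.14 for the members and -0.72 and -0.70 for all genes. CPM are shares of a library's RNA, and a change in the RNA content of the embryo cannot be told apart from a change of the other genes, nor, in pooled embryos, fewer cells from less RNA per cell.

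The same 25 genes rose in both groups, and Cox6a2 and Cox6b2 fell in both. Another 6 rose in NI without passing the threshold in Ctrl: Sdha, Sdhc, Sdhd, Ndufa10, Atp5b and Atp5sl. The 40 that rose in Ctrl without passing in NI included 18 complex I genes and 8 complex IV genes. Cox8a fell in NI and did not pass in Ctrl. Among those that passed in neither group were Atp5g2, Cox4i2, Cox7b, Cox7b2, Cox8c, Ndufa1, Ndufa2 and Ndufa4, and Ndufa4l2 and Cox8b had too few counts to test. The matching counts over all tested genes were not made, so the overlap of the members' calls stands without a background share.

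**Figure D2:**
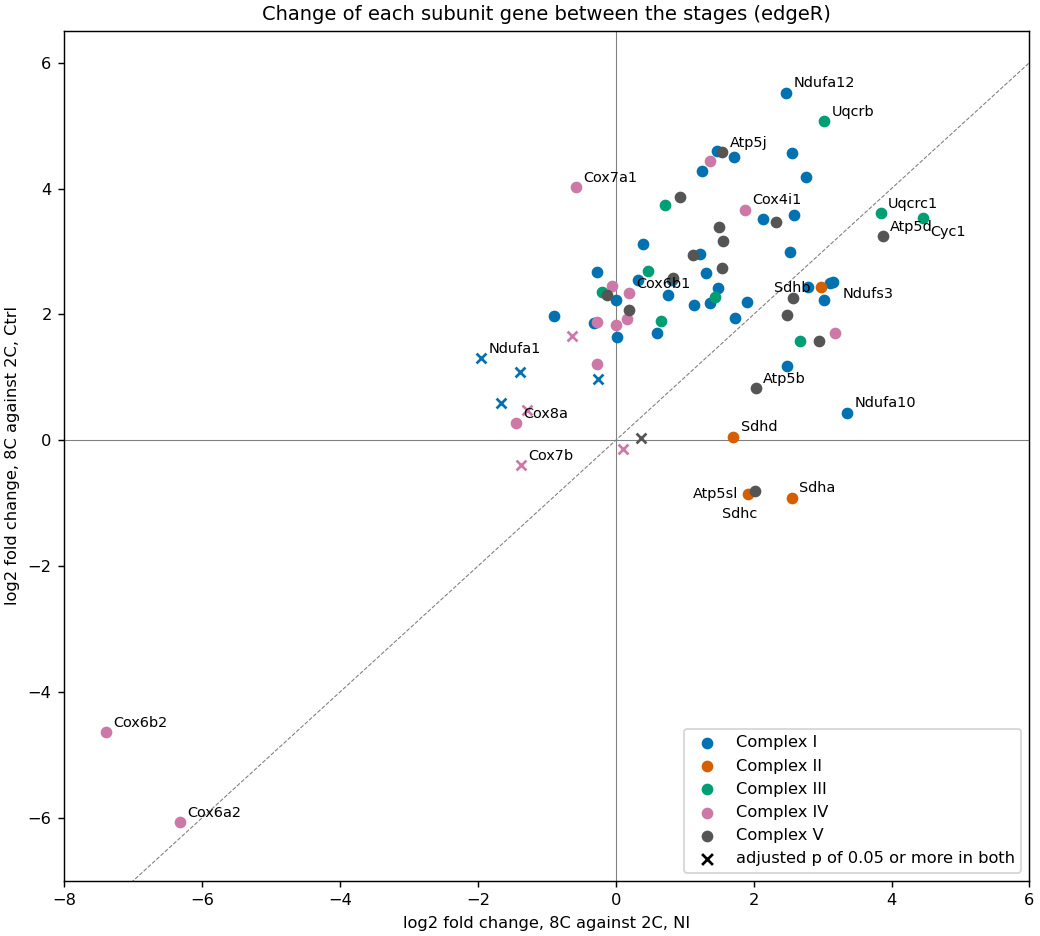
Log2 fold change of each of the 83 tested genes between 8C and 2C in NI embryos (horizontal axis) and Ctrl embryos (vertical axis), coloured by complex, with crosses for genes that passed in neither group and a dashed line of equal change. Cox6a2 and Cox6b2 lie far below 0 in both groups, and Sdha lies above 0 in NI (2.55) and below it in Ctrl (-0.91).

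In complex I, 14 of 36 tested genes rose in NI (median log2 fold change 1.34) and 31 rose in Ctrl (2.43), and none fell. Of the accessory subunits, which surround the core that carries the flavin and iron-sulfur clusters, 8 of 29 rose in NI and 25 of 29 in Ctrl. Ndufs3, a core subunit of the arm that faces the matrix, was at 33.8, 16, 15.1 and 14.8 CPM in NI 2C replicates 1 to 4, and its 6 NI 8C libraries ran from 89.0 to 284 CPM. In Ctrl it ran from 12.8 to 45.9 CPM at 2C and from 82.7 to 312 CPM at 8C. All 8C libraries lay above all 2C libraries, and the log2 fold change was 3.16 ± 0.50 (SE) in NI (adjusted p = 3.29e-06) and 2.51 ± 0.39 in Ctrl (adjusted p = 1.04e-06).

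Ndufa12, an accessory subunit added late in assembly, had the largest change of complex I in Ctrl. Its Ctrl 2C libraries ran from 1.89 to 61.7 CPM (median 8.01) and its Ctrl 8C libraries from 93.2 to 3344 CPM, where replicate 6 was the highest and the next was at 455 CPM. The groups did not overlap, and the log2 fold change was 5.53 ± 0.93 (adjusted p = 4.21e-06). In NI it was 136, 17.2, 23.0 and 14.3 CPM at 2C and 112 to 478 CPM at 8C, so NI 2C replicate 1 lay inside the 8C range, and the log2 fold change was 2.48 ± 1.01 (adjusted p = 0.0401). Others that rose by more than 4 on this scale in Ctrl were Ndufb4 (4.6 ± 0.89), Ndufa5 (4.57 ± 0.70), Ndufb7 (4.50 ± 0.80), Ndufc1 (4.28 ± 0.89) and Ndufs6 (4.18 ± 0.73). Of these, Ndufa5 and Ndufs6 also rose in NI, by 2.55 ± 0.80 and 2.76 ± 0.86, while Ndufb4, Ndufb7 and Ndufc1 did not pass there (1.47, 1.71 and 1.25).

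Ndufa10, an accessory subunit near the membrane arm, had the largest log2 fold change of complex I in NI, 3.36 ± 0.63 (adjusted p = 3.57e-05). It was at 4.30, 21.8, 7.17 and 15.5 CPM in NI 2C libraries and at 80.3 to 231 CPM in NI 8C libraries, which did not overlap. In Ctrl its 2C libraries were spread from 11.5 to 124 CPM and its 8C libraries from 30.3 to 133 CPM, and the log2 fold change was 0.44 ± 0.46 (adjusted p = 0.419). Ndufa9 (3.10 ± 0.56 in NI, 2.49 ± 0.44 in Ctrl), Ndufb5 (3.02 ± 0.64 and 2.23 ± 0.49) and the core subunit Ndufv1, which binds NADH (2.78 ± 0.61 and 2.43 ± 0.49), rose in both groups. Ndufa1, Ndufa2 and Ndufa4 had negative values in NI (-1.96, -1.67 and -1.39) and positive ones in Ctrl (1.31, 0.60 and 1.08), with no adjusted p under 0.0622. Ndufa4l2, a paralog of Ndufa4 induced by low oxygen, had 12 counts over the NI 2C libraries and 1 over the NI 8C libraries, a ratio of 30.1 (95% interval 4.45 to 1286, counting error only). It had 174 counts over the Ctrl 2C libraries and 0 over the Ctrl 8C libraries, so it was at least 31.9-fold lower there, with a floor of 3 counts for the whole group.

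Complex II, succinate dehydrogenase, is also an enzyme of the citric acid cycle. All 4 genes rose in NI (median log2 fold change 2.23), and 1 of 4, Sdhb, rose in Ctrl (median -0.40). Sdha, the flavoprotein that oxidises succinate, was at 9.82, 26.3, 12.9 and 25 CPM in the NI 2C libraries and at 151, 131, 194, 140, 17.3 and 25.3 CPM in the NI 8C libraries, so replicates 5 and 6 of the later stage lay inside the range of the earlier one. In Ctrl it was at 265, 58.4, 263, 32.8, 270, 10.8 and 316 CPM at 2C and at 87.2, 105, 78.0, 60.9, 192 and 32 CPM at 8C. The Ctrl 2C libraries 1, 3, 5 and 7 lay above all 8C libraries of the group and the other 3 did not. The log2 fold change was 2.55 ± 0.75 in NI (adjusted p = 0.00497) and -0.91 ± 0.59 in Ctrl (adjusted p = 0.177).

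Sdhb, the iron-sulfur subunit that passes electrons on, rose in both groups. It was at 6.14, 20.6, 12.2 and 9.88 CPM in NI and at 9.65 to 29.6 CPM in Ctrl embryos at 2C, and at 45.0 to 197 and 43.1 to 256 CPM at 8C. No 2C library reached an 8C library, and the log2 fold change was 2.97 ± 0.60 in NI (adjusted p = 0.000104) and 2.44 ± 0.47 in Ctrl (adjusted p = 3.03e-05). The membrane anchors Sdhc and Sdhd had values of 1.91 ± 0.68 and 1.71 ± 0.62 in NI and -0.86 ± 0.55 and 0.06 ± 0.51 in Ctrl.

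In complex III, 4 of 9 genes rose in NI (median 1.44) and all 9 rose in Ctrl (median 2.70). Cyc1 encodes cytochrome c1, which hands electrons to cytochrome c. It was at 12.9, 15.1, 5.02 and 10.4 CPM in NI 2C and at 132 to 439 CPM in NI 8C libraries, which did not overlap, and the log2 fold change of 4.46 ± 0.67 was the largest of all 83 genes in that group (adjusted p = 1.25e-06). In Ctrl it ran from 2.16 to 37.9 CPM at 2C and was at 209, 149, 215, 217, 145 and 16 CPM at 8C, so that replicate 6 alone lay inside the 2C range (log2 fold change 3.53 ± 0.50, adjusted p = 2.26e-07). Uqcrc1, 1 of the 2 large core proteins, rose by 3.85 ± 0.84 and 3.61 ± 0.66, and Uqcrc2, the other, by 2.68 ± 0.48 and 1.58 ± 0.37. The NI 2C libraries of Uqcrc1 were spread from 0.717 to 64.8 CPM, and Ctrl 8C replicate 6 was again far below its group, at 30.3 CPM where the others lay at 289 to 536 CPM.

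Uqcrb, which lies by a ubiquinone pocket of complex III, was at 215, 16.3, 36.6 and 27.3 CPM in NI 2C and at 188 to 1997 CPM in NI 8C libraries, with 2C replicate 1 inside the later range. In Ctrl it ran from 6.08 to 50.9 CPM at 2C and from 177 to 2916 CPM at 8C, with no overlap. It rose by 3.03 ± 0.92 in NI (adjusted p = 0.00605) and by 5.07 ± 0.80 in Ctrl (adjusted p = 1.42e-06). Uqcrfs1, the iron-sulfur protein of the complex, rose in Ctrl (2.27 ± 0.58) and missed the threshold in NI (1.44 ± 0.68, adjusted p = 0.0743). The small subunits Uqcr10, Uqcr11, Uqcrh and Uqcrq had values of -0.19 to 0.71 in NI, where none passed, and rose by 1.89 to 3.73 in Ctrl.

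Complex IV gave the only falls. In NI 2 of 17 tested genes rose, Cox4i1 and Cox7a2l, and 3 fell, and in Ctrl 10 rose and 2 fell. The median log2 fold change was -0.27 in NI and 1.71 in Ctrl. The value in NI turned positive when other weights or libraries were used: it was 0.57 with limma-voom, 0.59 without NI 2C replicate 1 and 1.88 without the libraries under 2000000 counts. The last value rests on NI 2C replicates 2 and 4 alone.

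Cox6b2, the testis form, was at 1298, 116, 2356 and 41.6 CPM in the NI 2C libraries, where replicates 1 and 3 were more than 10 times above the other two. It ran from 37.9 to 205 CPM in Ctrl 2C and from 166 to 356 CPM in KRAB 2C libraries. At 8C it was at 0.307 to 13.3 CPM in NI, 2.40 to 8.37 CPM in Ctrl and 3.80 to 17.6 CPM in VP64 embryos, below all 2C libraries. Cox6b2 fell by 7.39 ± 0.84 on the log2 scale in NI (adjusted p = 9.18e-09) and by 4.64 ± 0.72 in Ctrl (adjusted p = 1.13e-06). Its paralog Cox6b1 was at 581, 79.9, 284 and 47.4 CPM in NI 2C and at 131 to 578 CPM in NI 8C libraries, which overlapped (log2 fold change 0.20 ± 0.61, adjusted p = 0.804). In Ctrl Cox6b1 ran from 33.1 to 203 CPM at 2C and from 173 to 876 CPM at 8C, where 2C replicate 6 was the only library inside the later range, and it rose by 2.34 ± 0.54 (adjusted p = 0.000285).

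Cox6a2, the muscle form of another subunit, was low at 2C (0.329 to 13.6 CPM in NI, 1.13 to 9.72 CPM in Ctrl) and was counted at 8C in 1 NI, 1 Ctrl and 1 VP64 library. It fell in both groups, and the ratio of the pooled levels at 2C and 8C was 80.2 in NI (95% interval 13.4 to 3265) and 131 in Ctrl (95% interval 23.3 to 5188), counting error only. Cox8a was at 2545, 358, 3196 and 177 CPM in NI 2C and at 221 to 1205 CPM in NI 8C libraries, and it fell by 1.44 ± 0.56 in NI (adjusted p = 0.0302). NI 2C replicates 1 and 3 were the highest of their group. Without the 10 libraries under 2000000 counts, which include both, the value was 1.15. In Ctrl it was 0.27 ± 0.49 (adjusted p = 0.648).

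Cox4i1, the general form of the subunit that binds ATP as an inhibitor, was at 769, 119, 370 and 92.0 CPM in NI 2C and at 540 to 3114 CPM in NI 8C libraries, with NI 2C replicate 1 inside the later range. In Ctrl it ran from 12.8 to 322 CPM at 2C and from 502 to 2590 CPM at 8C without overlap. It rose by 1.87 ± 0.75 in NI (adjusted p = 0.0356) and by 3.66 ± 0.65 in Ctrl (adjusted p = 9.65e-06). Cox7a2l rose in both groups, by 3.18 ± 0.50 and 1.71 ± 0.38, and no 2C library of either group reached its 8C libraries. Cox7c rose by 4.44 ± 0.89 in Ctrl and had 1.37 ± 0.96 in NI. It shares 25.2% of its 31-base words with other listed genes, most of them with Gm10012 (19.75%). Ndufs5 shares 26.5% with the listed gene BC002163, so that the division of reads between these copies is uncertain. Counting genes that are not listed as well, 27 members share 10% or more of their words, against 2 for listed genes alone. Among the 27 are Atp5l (69.7%), Uqcrb (54.3%), Ndufs3 (49.3%) and Ndufa12 (29.3%), which share no words with listed genes. Whether reads of unlisted copies were counted for these members was not tested. Cox7a1, a muscle form, rose by 4.02 ± 1.02 in Ctrl from 0 to 10.8 CPM at 2C to 3.77 to 122 CPM at 8C, and had -0.58 ± 1.02 in NI.

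**Figure D3:**
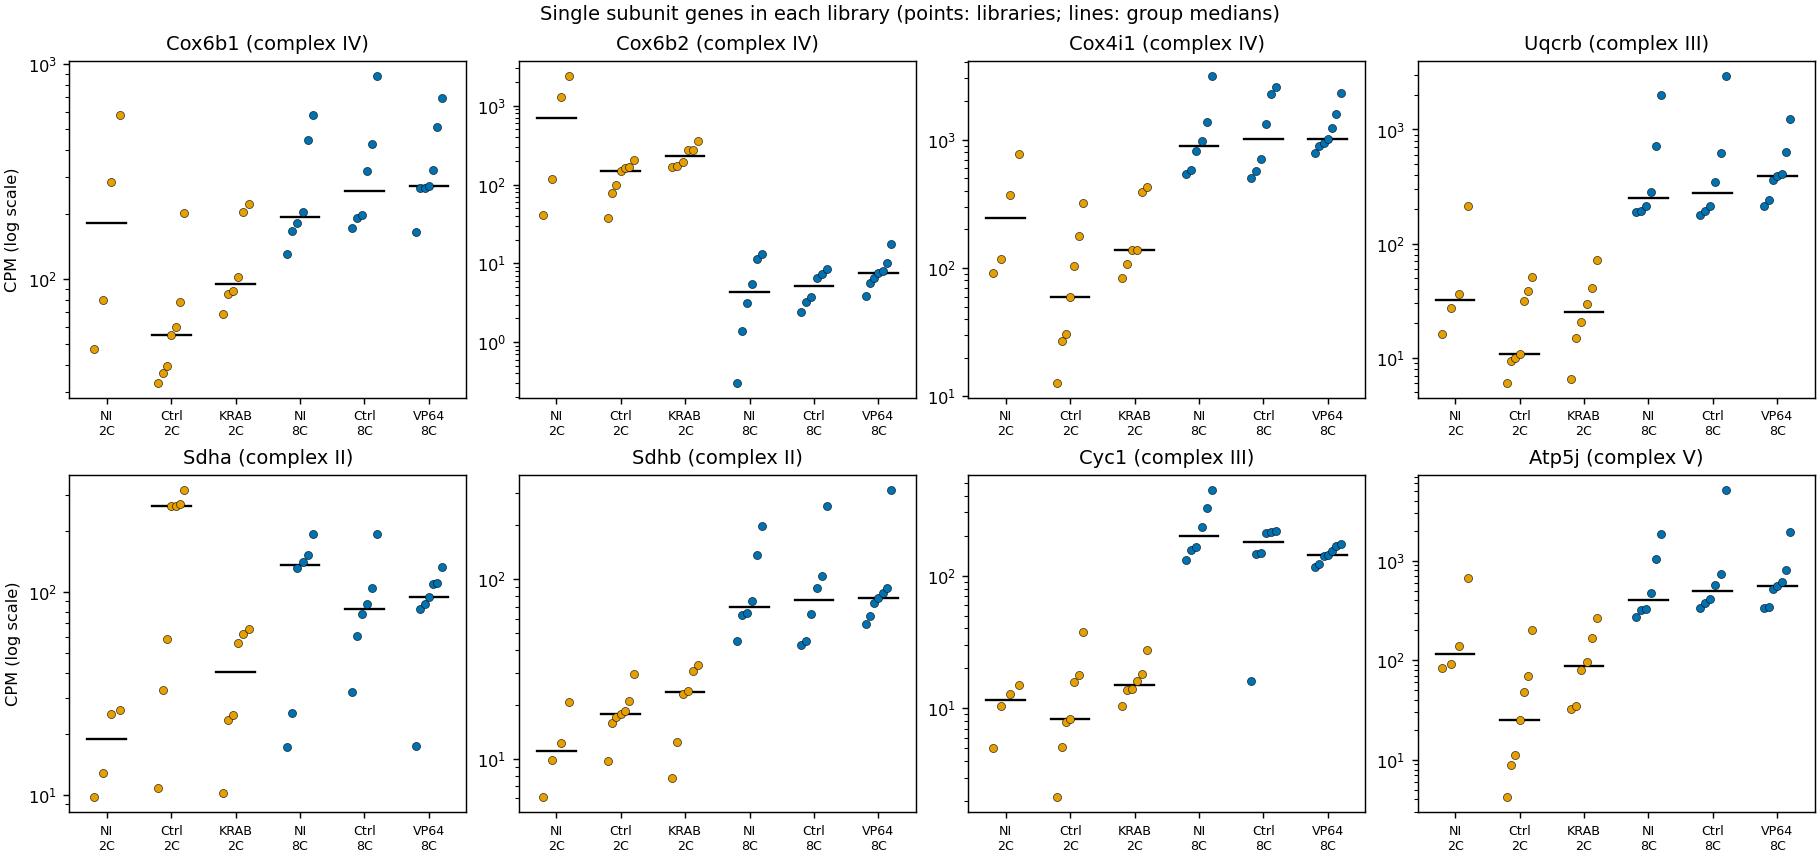
CPM of single subunit genes (vertical axes, log scale) in the 6 groups (horizontal axes), with 1 point per library and a line at the group median. Cox6b2 lies at 37.9 to 2356 CPM in all 2C libraries and at 0.307 to 17.6 CPM in all 8C libraries, and Sdha is split within Ctrl 2C between 10.8 and 316 CPM.

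In complex V, 7 of 17 genes rose in NI (median 1.55) and 14 rose in Ctrl (median 2.57), and none fell. The catalytic F1 head gave 4 of 5 risen genes in each group, without Atp5e in NI and without Atp5b in Ctrl. Of the stalk and membrane part 2 of 7 rose in NI and 7 of 7 in Ctrl, and of the 3 ring genes none rose in NI and Atp5g1 and Atp5g3 rose in Ctrl. Atp5d, the delta subunit of the central stalk, rose most in NI, by 3.88 ± 0.78 (adjusted p = 0.000101), from 63.2, 15.5, 11.5 and 14.3 CPM at 2C to 141 to 905 CPM at 8C without overlap. In Ctrl Atp5d rose by 3.24 ± 0.60, from 4.56 to 75.7 CPM to 46.8 to 481 CPM. Its lowest 8C library was replicate 6.

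Atp5j, coupling factor 6 of the peripheral stalk, rose most of complex V in Ctrl. The 7 libraries at 2C ran from 4.27 to 204 CPM (median 25.3) and the 6 at 8C from 338 to 5088 CPM, of which replicate 6 was the highest and the next was at 739 CPM. The groups did not overlap, and the log2 fold change was 4.58 ± 0.83 (adjusted p = 1.16e-05). In NI Atp5j was at 666, 91.6, 141 and 83.6 CPM at 2C and at 270 to 1866 CPM at 8C, with replicate 1 inside the later range (1.55 ± 0.90, adjusted p = 0.147). The gene lies across from Gabpa, which is transcribed the other way, and the library kit does not keep the strand.

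Atp5b, the catalytic beta subunit, passed in NI and not in Ctrl. It was at 119, 412, 285 and 350 CPM in NI 2C and at 754 to 1836 CPM in NI 8C libraries, and rose by 2.03 ± 0.62 (adjusted p = 0.0062). In Ctrl 2C embryos replicates 1, 3, 5 and 7 lay at 958 to 1149 CPM and replicates 2, 4 and 6 at 93.1 to 454 CPM, the same division as for Sdha, against 374 to 2580 CPM at 8C (0.82 ± 0.49, adjusted p = 0.143). Atp5a1, the alpha subunit that pairs with it, rose in both groups (2.95 ± 0.63 and 1.58 ± 0.49), as did the gamma subunit gene Atp5c1 (2.57 ± 0.45 and 2.26 ± 0.36).

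Single libraries bore on the number of calls. Without NI 2C replicate 1 the number of called genes in NI was 46 in place of 34 (43 up and 3 down, against 15.8% and 30% of all genes), with a median log2 fold change of 2.12. Sdhc, Sdhd, Cox8a and Atp5sl were no longer called there. With limma-voom 54 members were called in NI, 52 up and 2 down, against 21.8% and 34.7% of all genes. Over all 10 fits that left out 1 NI library, Ndufa8, Ndufa12, Ndufs5, Ndufs8, Sdhc, Sdhd, Cox4i1, Cox8a and Atp5sl were lost at least once. Without the libraries under 2000000 counts, an alternative chosen after seeing the data that left NI 2C replicates 2 and 4 alone, 51 were called in NI (48 up and 3 down, against 11.6% and 24% of all genes) and 26 of the 34 remained. Those lost were Sdha, Sdhc, Sdhd, Atp5b, Atp5sl, Ndufs1, Ndufs8 and Cox8a, while the median was 2.36. In Ctrl, leaving out 8C replicate 6 gave 54 called genes (52 up and 2 down, against 21.4% and 38.3% of all genes), all among the original 67, with a median of 1.74. Of the 13 lost there, 7 were accessory subunits of complex I (Ndufa6, Ndufa11, Ndufb2, Ndufb6, Ndufb8, Ndufb10 and Ndufb11), and the others were Uqcr11, Uqcrh, Cox5b, Cox7a2, Atp5g1 and Atp5j2. Ndufs1, Ndufb6 and Cox5b were lost in several of the other fits that left out 1 Ctrl library.

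Members with an NRF1 match had a median log2 fold change of 1.63 in NI (12 of 24 rose) and 3.08 in Ctrl (20 of 24 rose). Members with a promoter but no match had 0.97 (12 of 44 rose) and 2.21 (36 of 44 rose). For ETS matches the medians were 1.22 with and 1.31 without in NI, and 2.40 and 2.29 in Ctrl. For YY1 matches they were 1.55 with and 1.14 without in NI, and 2.49 and 2.27 in Ctrl. For CCAAT matches they were lower with than without, at 0.83 and 1.55 in NI and 2.22 and 2.49 in Ctrl. These are descriptions of a chosen set, and no test was made of the difference. Sdha, with 3 matches, and Ndufa12, with 1, had opposite signs in Ctrl.

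Whether the change between stages differed between Ctrl and NI embryos was tested as an interaction, the log2 fold change in Ctrl minus that in NI. No member passed (0 of 83, edgeR, and 0% of the 13158 tested). There were 38 members with an unadjusted p below 0.05, 32 with a positive and 6 with a negative difference, against 20.4% of all genes. DESeq2 called 6 members (2 positive, 4 negative, 4.77% of all genes) and limma-voom with quality weights 13 (9 and 4, 27.3%). Sdha (-3.46 ± 0.95, adjusted p = 0.0849), Ndufa10 (-2.92 ± 0.75, 0.0781), Sdhc (-2.77 ± 0.87, 0.1) and Atp5sl (-2.82 ± 0.93, 0.107) had the lowest values, and Cox7a1 (4.6 ± 1.42, adjusted p = 0.0943), Ndufa1 (3.26 ± 1.17), Ndufb4 (3.13 ± 1.20) and Cox7c (3.07 ± 1.21) the highest. Complex II was negative for all 4 genes (median -2.21), and the medians of complexes I, III, IV and V were 1.48, 1.23, 1.79 and 1.19. Without Ctrl 2C replicate 6 there were 29 called members, 25 positive and 4 negative, against 8.36% of all genes. Without NI 2C replicate 1 the median over members went from 1.54 to 0.58.

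The members' changes also varied with the length of their transcripts, which runs from 360 bases in complex IV to 3171 bases in complex II, with medians of 763, 2065.5, 547, 594.5 and 838 bases for complexes I to V. Across the 83 genes Spearman's rho between length and log2 fold change was 0.58 for the change between stages in NI, -0.20 in Ctrl and -0.66 for the interaction, against -0.14, -0.20 and -0.11 across all genes with a length. Genes are not independent replicates, they share the same libraries, and these values are descriptions. In the interaction the 38 members under 700 bases had a median of 2.09 and 36 were positive, the 24 of 700 to 1200 bases had 1.12 and 18 were positive, and the 21 above 1200 bases had -0.61 and 7 were positive. All genes in the same bins had medians of 1.08, 0.03 and -0.44. The difference between the mean log2 CPM of the short and long members was spread most within NI 2C libraries, from -0.61 to 3.73, and was 1.92 in Ctrl 2C replicate 6 and 2.55 in Ctrl 8C replicate 6, the highest of their groups. The part of transcript length in the differences between groups was not tested.

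**Figure D4:**
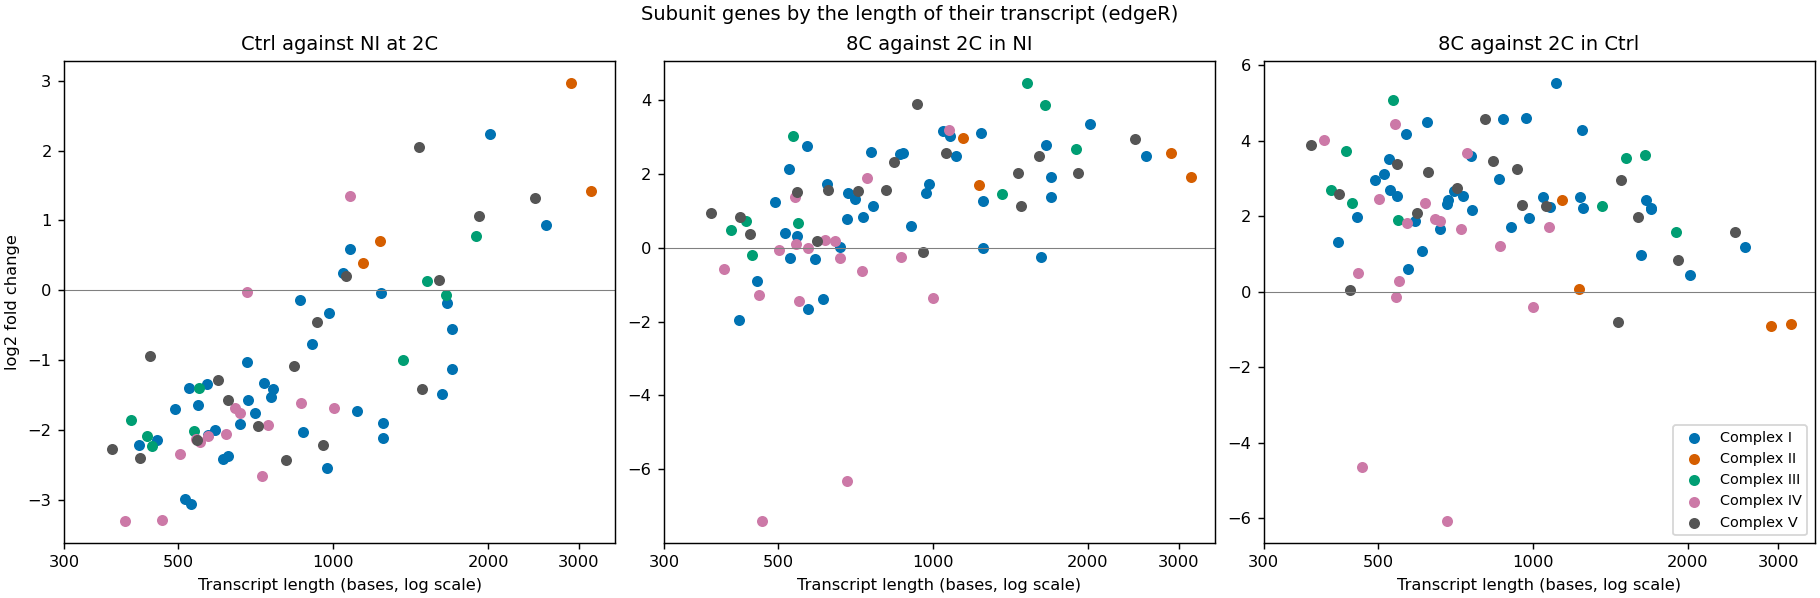
Log2 fold change of each tested subunit gene (vertical axes) by the length of its transcript in bases (horizontal axes, log scale), coloured by complex, in 3 comparisons. Where Ctrl and NI are compared at 2C, all 36 genes under 700 bases lie below 0 and 11 of the 21 above 1200 bases lie above it.

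The second question was whether the groups differed from each other at 2C. Between Ctrl and NI no member passed (0 of 81, edgeR, 0% of 11799 genes), and 42 had an unadjusted p under 0.05, 6 higher and 36 lower in Ctrl, against 23.4% of all genes. The median log2 fold change over members was -1.56 and 65 of 81 values were negative, where the median of all genes was 0.07. Complex IV had the lowest median (-2.05, 14 of 15 negative), followed by complex I (-1.55), complex III (-1.40) and complex V (-1.28). Complex II was positive for all 4 genes, with a median of 1.06. The 36 members under 700 bases had a median of -2.06, against -1.19 for all genes of that length, and the 21 above 1200 bases 0.13, against 0.16.

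The smallest p-values belonged to Cox6b2 (-3.28 ± 0.75) and Sdha (2.97 ± 0.77), both with an adjusted p of 0.121. For Cox6b2 the 7 Ctrl libraries (37.9 to 205 CPM) lay far below NI replicates 1 and 3, while NI replicates 2 and 4 (116 and 41.6 CPM) lay within the Ctrl range. For Sdha the 4 NI libraries lay at 9.82 to 26.3 CPM, and 6 of 7 Ctrl libraries were higher. Ndufa7, an accessory subunit, was at 370, 39.2, 186 and 20.2 CPM in NI and at 5.54 to 86.2 CPM in Ctrl (-3.05). Next in complex I were Ndufa3 (-2.98) and Ndufa10 (2.24). Cox6c (-2.34) in complex IV, Uqcrb (-2.01) in complex III and Atp5sl (2.05) in complex V were among the smallest p-values of their complexes.

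Other tools and libraries gave calls in this comparison. DESeq2 called 13 members, 4 higher (Sdha, Ndufa10, Cox7a2l and Atp5sl) and 9 lower in Ctrl, against 9.04% of all genes, and limma-voom called 45, 8 higher and 37 lower, against 50.5%. Ctrl replicate 6 was among the highest of its group in most short members: without it edgeR called 46 members, 3 higher and 43 lower in Ctrl, against 11.6% of all genes. The 43 were 19 of complex I, 5 of complex III, 10 of complex IV and 9 of complex V. Without NI replicate 1 the median over members was -0.35, and without the libraries under 2000000 counts it was -0.60, with no member called. In the latter fit NI replicates 2 and 4 alone remained, so the absence of calls can also reflect fewer libraries.

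Between KRAB and Ctrl embryos at 2C no member passed (0 of 81, edgeR, 0%), and 3 had an unadjusted p under 0.05, against 15.6% of all genes. These were Sdha (-1.88 ± 0.62, adjusted p = 0.230), Atp5sl (-1.42) and the ring gene Atp5g3 (1.5). Sdha was at 23.5, 62.1, 10.2, 65.5, 24.7 and 56.1 CPM in KRAB embryos, all below the 4 high Ctrl libraries and close to the other 3. The median over members was 0.71 with 64 of 81 positive, where that of all genes was -0.13. The median of complex II again had the opposite sign (-0.44). Leaving out 1 library gave medians over members from 0.38 (without KRAB replicate 5) to 1.33 (without Ctrl replicate 6), with 0 members called by edgeR. Limma-voom called 34 members, 31 higher and 3 lower in KRAB, against 44.4% of all genes, and DESeq2 called 0. Without the 4 libraries of both groups, and the 2 NI libraries, that held under 2000000 counts, edgeR called 40 of 84 members, 38 higher and 2 lower, against 16.2% of all genes, and the median was 1.58. Among the 38 were Ndufa2 (3.41), Ndufa7 (3.04), Atp5g3 (2.85) and Uqcrq (2.81).

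Between KRAB and NI embryos at 2C no member passed either (0 of 81, edgeR, 0%), and 4 had an unadjusted p under 0.05, all lower in KRAB, against 3.12% of all genes. They were Ndufa3 (-2.52), Cox6b2 (-2.16), Cox6c (-1.57) and Atp5l (-1.78), with adjusted p-values of 0.998. The median was -0.84 and turned to 0.23 without NI replicate 1, and to 1.33 without the libraries under 2000000 counts, which left NI replicates 2 and 4 alone. DESeq2 and limma-voom called 0 members. The KRAB comparisons share their libraries with those of Ctrl and NI, so the values of the 3 comparisons are not independent.

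**Figure D5:**
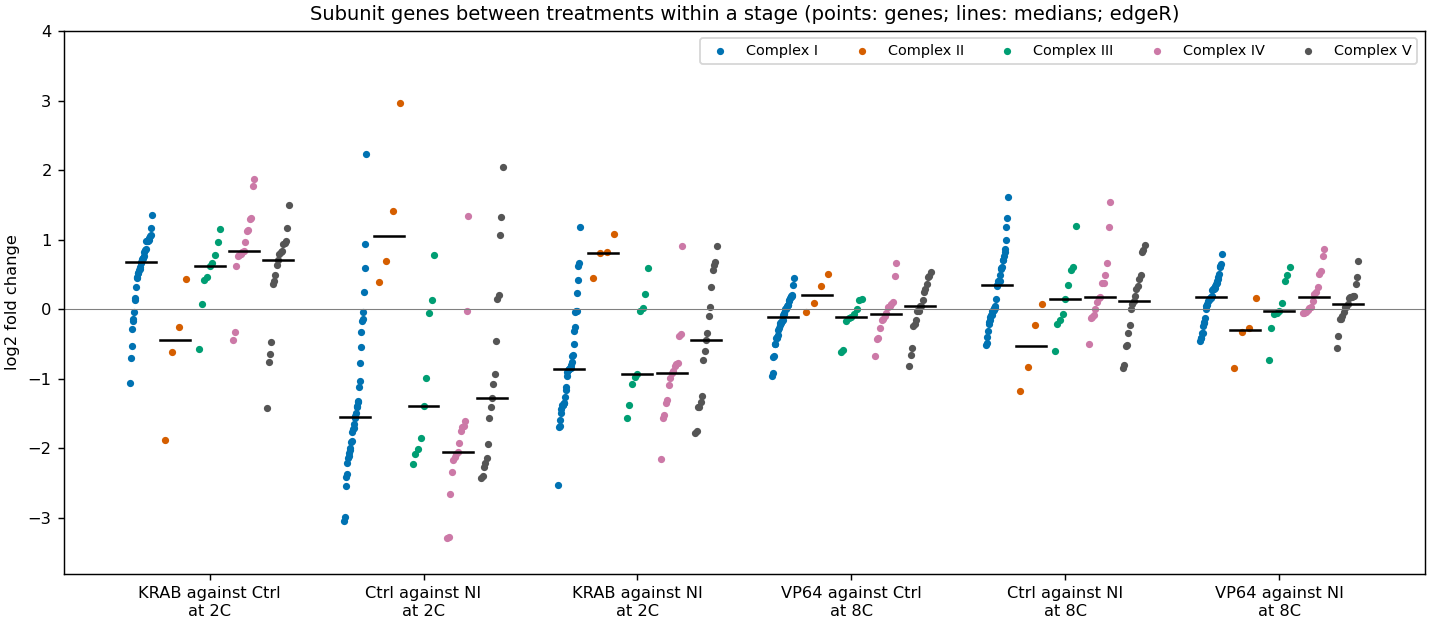
Log2 fold change of each tested subunit gene (vertical axis) in the 6 comparisons within a stage (horizontal axis), coloured by complex, with black lines at the medians of each complex. At 2C the median of complex II lies on the other side of 0 from most genes of the other complexes, and at 8C all medians lie between -0.53 and 0.34.

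At 8C the groups were close. Between VP64 and Ctrl no member passed and none had an unadjusted p under 0.05 (0 of 80, edgeR, against 0% and 3.99% of 9850 genes). The log2 fold changes ran from -0.96 (Ndufa12) to 0.67 (Cox6b2) with a median of -0.05, where that of all genes was -0.06. Between Ctrl and NI no member passed (0%), 1 had an unadjusted p under 0.05, against 4.36% of all genes, and the median was 0.15. That gene was the complex II anchor Sdhc, which was at 8.60, 30.7, 16.1, 32.3, 71.6 and 99.5 CPM in NI and at 41.6, 21.5, 12.5, 15.6, 15.1 and 8.00 CPM in Ctrl (-1.18 ± 0.49). Its high values in NI were those of replicates 5 and 6. Between VP64 and NI none passed and none had an unadjusted p under 0.05 (0% and 7.17% of all genes), with a median of 0.14 and a range from -0.85 (Sdhc) to 0.86 (Cox7a1). DESeq2 and limma-voom called 0 members in each of these comparisons.

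The small medians at 8C took their sign from single libraries. Without Ctrl replicate 6 the median was 0.58 for VP64 against Ctrl and -0.34 for Ctrl against NI. Without VP64 replicate 7 that for VP64 against NI was -0.17, and without NI replicate 6 it was 0.58. In Ctrl replicate 6 and VP64 replicate 7 genes such as Ndufa12 (3344 and 1701 CPM), Atp5j (5088 and 1948 CPM) and Atp5g1 (7067 and 3804 CPM) were high. In the same libraries Sdha was at 32 and 17.4 CPM and Atp5b at 374 and 346 CPM, the lowest of their groups. For VP64 against Ctrl the 95% interval of the median gene, over all 9850 genes tested, reached 1.01 to either side on the log2 scale. For genes in general, smaller differences were thus mostly not detectable with these pools.

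Genes that build and feed the chain were followed in lists of known members, whose counts stand against 18.5% of all genes up and 31.4% down in NI and 22.5% and 39% in Ctrl. Of the assembly factors of complex I, 7 of 15 tested genes were up and 2 down in NI, and 8 were up and 1 down in Ctrl. This list also holds Ndufab1, the complex I subunit that the symbol rule left out. Ndufaf6 rose in both groups (2.57 and 3.14), Tmem126b rose in Ctrl (3.75) and Ndufaf2 fell in NI (-2.55). Of the assembly factors of complexes II to V, 15 of 31 rose and 1 fell in each group. Cox19, which handles copper for complex IV, rose by 4.8 and 3.34, and Uqcc1, an assembly factor of complex III, by 3.91 and 1.92. Of the genes for cytochrome c and ubiquinone synthesis, 6 of 13 were up and 3 down in NI, against 4 and 3 in Ctrl. Coq7, a hydroxylase of ubiquinone synthesis, rose in both (3.06 and 3.03), Cycs, cytochrome c itself, rose in Ctrl (2.44) and Coq10a and Coq10b fell in Ctrl (-3.13 and -2.98).

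Pyruvate dehydrogenase and the citric acid cycle, which supply NADH and succinate, gave 10 risen and 1 fallen of 20 tested genes in NI, and 10 risen and 8 fallen in Ctrl, where the share of fallen genes was near that of all genes. Suclg1, a subunit of the enzyme that makes succinate (5.47 and 3.24), and Pdha1, the first enzyme of pyruvate oxidation (3.19 and 2.73), rose in both, and Dlst, of the oxoglutarate dehydrogenase complex, fell in Ctrl (-3.94). Of the regulators of respiratory genes and the copying machinery of mitochondrial DNA, 1 of 16 was up and 1 down in NI, against 5 and 2 in Ctrl. Tfam, which packs mitochondrial DNA, rose in Ctrl (2.10), Polrmt, the mitochondrial RNA polymerase, rose in NI (2.46), and Ppargc1b, a coactivator of respiratory genes, fell in both (-2.85 and -3.65). No gene of these lists passed in a comparison within a stage or in the interaction.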

How the data were processed

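RNA of mouse embryo pools was measured with SMART-seq v4 libraries, per the labels' protocols. The deposited table holds expected counts per gene symbol, estimated by the authors on mm10. The submitters' processing notes name Bowtie2 and RSEM for this. Versions, annotation and filters: not given in the sources used here. RSEM gives estimated counts that need not be whole and divides reads among similar genes, and the library kit keeps no strand. Unused columns of samples numbered 0.

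Rounding turned the expected counts into whole numbers, which went into edgeR 4.0.16 (limma 3.58.1, R 4.3.3; quasi-likelihood, robust option) after TMM scaling and filterByExpr (minimum count 10, minimum total 15). P-values were adjusted over all genes tested (Benjamini-Hochberg, 0.05). Comparisons within a stage used the 17 libraries at 2C or the 19 at 8C. Those between stages used all 36. The filter kept 83, 81 and 80 of the 85 genes in the fits of all libraries, of 2C and of 8C, so Cox8b, Ndufa4l2, Cox7b2, Cox8c and Cox6a2 were not all tested everywhere. Standard errors are the log2 fold change over the root of F. DESeq2 1.42.0, limma-voom with quality weights, other scaling and filters, and fits without single libraries were alternatives. No pair of libraries of the same group agreed within sampling noise (lowest chi-square per degree of freedom 7.75), and pairs across groups were not compared.

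Transcript lengths were those of GENCODE vM21 (98.5% of symbols matched) and promoters those of RefSeq (GRCm38.p6, 69 of 85 matched). In that annotation 23 of the 85 genes overlap another gene. Genes were named by a rule: per comparison and complex up to 6 called genes of the largest change, or the 2 with the smallest p, besides core members, paralogs and the most abundant, and up to 4 per other list. The members, the lists and this rule were chosen with earlier results of these data known. The fits were tested on simulated data. Intervals and floors cover counting error only. For 1 of the 85 genes, its own results are not reported here.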

Additional observations from a re-analysis of the deposited data

Results flagged for a closer look

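In groups of 4 to 10 libraries, a library was singled out when its gap to the nearest other library took more of the group's range than Dixon's 95% critical value allows. Of 102 groups tested for the summed levels of the 5 complexes and for 12 genes, 35 were singled out. For normally distributed values the rule singles out about 1 in 20 groups by chance. CPM were used without taking logs, so that rate need not hold here. The measures share libraries and are not independent.

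Ctrl 8C replicate 6 was the highest of its group in complex I (21110 CPM, the next 5735), complex III (7428 CPM), complex IV (14627 CPM) and complex V (19110 CPM). It was also highest for Cox6b1 (876 CPM), Uqcrb (2916 CPM), Ndufa12 (3344 CPM), Sdhb (256 CPM) and Atp5j (5088 CPM), and lowest for Cyc1 (16 CPM). VP64 8C replicate 7 was the highest in complex I (14428 CPM), complex III (5297 CPM), Uqcrb (1238 CPM), Ndufa12 (1701 CPM), Sdhb (311 CPM) and Atp5j (1948 CPM), and the lowest for Sdha (17.4 CPM). NI 8C replicate 6 was highest for Cox4i1 (3114 CPM) and Uqcrb (1997 CPM).

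At 2C, Ctrl replicate 6 was the highest in complex I (4097 CPM), complex III (769 CPM), complex IV (3694 CPM), Cox6b1 (203 CPM), Ndufa12 (61.7 CPM) and Atp5j (204 CPM). NI replicate 1 was the highest in complex III (1864 CPM), complex V (5535 CPM), Uqcrb (215 CPM), Ndufa12 (136 CPM), Ndufs3 (33.8 CPM) and Atp5j (666 CPM), and NI replicate 3 for Cox6a2 (13.6 CPM). At 8C Cox6a2 was counted in a single library of each group: NI replicate 4 (0.068 CPM), Ctrl replicate 6 (0.571 CPM) and VP64 replicate 5 (0.417 CPM). With all others at 0, the rule singles out such a library whatever its level. Why these libraries stand apart was not tested.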

How the results depend on the processing

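The number of called members kept within 1.5 times its value in most settings, and the exceptions were these. In KRAB against Ctrl at 2C, where edgeR called 0, limma-voom called 34, and 40 were called without the libraries under 2000000 counts, an alternative chosen after seeing the data. In Ctrl against NI at 2C, also at 0, DESeq2 called 13 and limma-voom 45, and leaving out 1 library gave 0 to 46, with 46 reached without Ctrl 2C replicate 6. In NI between the stages limma-voom called 54 in place of 34. For the interaction DESeq2 called 6 and limma-voom 13, and leaving out 1 library gave 0 to 29, with 29 without Ctrl 2C replicate 6, 1 without replicate 2 and 2 without replicate 4. The other comparisons within a stage stayed at 0 in all fits. Between the stages, leaving out 1 library kept within 1.5 times, with 30 to 46 in NI and 54 to 70 in place of 67 in Ctrl. Cox8a in NI turned from a fall to 1.147 (adjusted p = 0.188) without the libraries under 2000000 counts, which left NI 2C replicates 2 and 4 alone. The cause was not tested. Depth limits the low genes: Cox6a2, Ndufa4l2, Cox7b2 and Cox8c rest on few counts. Leaving out libraries with a TMM factor under 0.65, chosen after seeing the data, removed 8C libraries alone. No paired analysis was possible because replicate numbers were given in accession order and tie no library of one group to one of another.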
